A study of Mus musculus with 24 samples.

Results

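The interleukin-1, interleukin-18 and interleukin-33 family was examined in the ileum of mice exposed to a macrolide antibiotic early in life. The members were the 10 genes named Il1a, Il1b, Il1rn, Il1r2, Il1rap, Il18, Il18r1, Il18rap, Il33 and Il1rl1, and all 10 were found among the 547 genes of the deposited table. They were chosen by name, as ligands, antagonist, decoy and receptor chains of these cytokines. The mice were C57BL/6, and total RNA of the terminal ileum was taken at week 7 of life and measured with the NanoString nCounter GX mouse immunology panel, which counts colour-coded probes bound to each transcript without amplification. Control mice received no antibiotic. PAT1 mice received 1 course of tylosin, a macrolide, as nursing pups through the milk of the treated dam. PAT3 mice received that same course and further courses after weaning. Control and PAT1 each comprised 7 mice, of which 4 were male and 3 female, and PAT3 comprised 10, of which 4 were male and 6 female. The legend of the study's expression heatmap divides these mice between PAT1 and PAT3 with other group sizes than the labels. The labels were used throughout, so 1 mouse may count toward the wrong group in every PAT1 and PAT3 value. The question was whether early courses of the antibiotic altered immune gene expression weeks later, and whether further courses added to the effect of the first. Whole litters were assigned to a treatment, and mice were housed by sex and treatment, so litter, cage and treatment cannot be told apart. Nothing in the labels tied samples to litters, so p-values measure the spread between these mice alone.

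Cytokines of this family alert the tissue to damage and microbes. IL-1 alpha and IL-1 beta signal through a receptor that recruits the accessory chain encoded by Il1rap, IL-33 signals through the product of Il1rl1 (ST2) with the same accessory chain, and IL-18 signals through its own pair of chains, encoded by Il18r1 and Il18rap. All of these receptors use the adaptor MyD88 and IRAK kinases to activate NF-kappaB. In the intestine IL-18 and IL-33 are stored in epithelial and stromal cells, IL-1 beta comes mainly from myeloid cells and requires cleavage by caspase-1, and these cytokines act on T cells and innate lymphocytes.

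Sequence upstream of the transcription start is shown for Il1b, Il18 and Il1rap, which were called different from Control in PAT3 (adjusted p under 0.05, as described further on) and have 1 start in the RefSeq table of GRCm38.p6. Il18r1, the other gene called there, had 3 listed starts. Each run is the 250 bases before the start on the strand of the gene, 5′ to 3′, and capitals mark matches to the motifs searched.

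Il1b, minus strand, chr2:129371140-129371389: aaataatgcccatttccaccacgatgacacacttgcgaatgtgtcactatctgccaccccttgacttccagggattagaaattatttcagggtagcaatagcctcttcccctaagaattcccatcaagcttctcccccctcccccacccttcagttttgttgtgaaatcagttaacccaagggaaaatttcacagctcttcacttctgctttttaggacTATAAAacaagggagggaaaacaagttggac

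Il18, plus strand, chr9:50554450-50554699: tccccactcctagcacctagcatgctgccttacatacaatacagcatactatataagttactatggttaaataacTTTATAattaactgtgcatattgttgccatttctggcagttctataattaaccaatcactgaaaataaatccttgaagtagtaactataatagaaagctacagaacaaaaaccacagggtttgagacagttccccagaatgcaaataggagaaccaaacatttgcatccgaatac

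Il1rap, plus strand, chr16:26581455-26581704: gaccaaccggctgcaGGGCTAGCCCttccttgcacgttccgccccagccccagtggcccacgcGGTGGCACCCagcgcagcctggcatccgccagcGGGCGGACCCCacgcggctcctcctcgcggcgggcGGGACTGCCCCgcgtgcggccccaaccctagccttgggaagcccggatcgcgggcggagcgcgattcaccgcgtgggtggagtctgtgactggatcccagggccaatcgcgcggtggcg

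The motifs searched on both strands were a TATA element (TATAAA), a kappaB site (GGG and CC with 5 bases between them), a GAS site (TTC and GAA with 3 between), an ISRE (GAAA repeated after 2 bases) and an AP-1 site (TGANTCA, where N is any base). The TATA element of Il1b began at position -31 from the start. The match in Il18 was on the opposite strand, its first base at -175. The capitals of Il1rap cover 6 overlapping or separate kappaB matches, and none of the other motifs was matched there. Over the 32851 promoters of that length in the table, 12.4% held the TATA element, 45.8% a kappaB site, 7.02% a GAS site, 2.98% an ISRE and 6.75% an AP-1 site. Of the 16 listed promoters of the family, 5 held TATAAA (in Il18, Il1a, Il1b and Il33), 4 the kappaB letters, 2 the GAS letters, 2 the AP-1 letters and 0 the ISRE letters. In the RefSeq gene order, Il1r2, Il1rl1, Il18r1 and Il18rap lie in a run of 6 adjacent protein-coding genes on chromosome 1 that also holds Il1r1 and Il1rl2. Il1a and Il1b are neighbours on chromosome 2, where Il1rn also lies, and Il18, Il1rap and Il33 lie on chromosomes 9, 16 and 19.

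Total counts ranged from 171671 to 782392 per sample, with medians of 591962 in Control, 543394 in PAT1 and 598241 in PAT3. The shallowest samples were PAT1 replicate 1 (171671 counts) and PAT3 replicate 7 (265500 counts), and replicate numbers serve only as names. Enterocyte markers were abundant in every mouse, with summed levels of 36584 to 69874 normalized counts in Control, 30843 to 69680 in PAT1 and 22599 to 69171 in PAT3. T cell markers summed to 988 to 1190 normalized counts in Control, 578 to 1212 in PAT1 and 398 to 716 in PAT3. Of these markers, 9 of 11 were called lower in PAT3 than in Control, beside 17.9% of all genes.

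Of the family, Il1b fell after PAT1, whereas Il1b and Il18 fell and Il18r1 and Il1rap rose after PAT3. In the PAT1 comparison 1 of 10 family genes was called at an adjusted p under 0.05 (limma, Benjamini-Hochberg over 547 genes), against 18.5% of all genes tested, with 7.31% higher and 11.2% lower. At an unadjusted p under 0.05 it was 2 of 10, against 28.7%. In the PAT3 comparison 4 of 10 were called, against 31.8% of all genes, 2 of them higher (13.9% of all genes) and 2 lower (17.9% of all genes), and the same 4 of 10 passed without adjustment, against 43.7%. Between PAT3 and PAT1 limma called 0 of 10 family genes, against 4.2% of all genes (1.46% higher and 2.74% lower). At an unadjusted p under 0.05, 1 of 10 passed there, against 28.5%. The methods' test (the analysis of variance with Tukey's comparison that the study used) called 0 of 10 family genes there and 0 of all 547. Voom on recovered counts called 0 of 10, against 47 of all 547 genes. The moderated F-test among the groups called 3 of 10 (Il1b, Il18 and Il18r1), against 34.6% of all genes, and 4 of 10 passed without adjustment, against 47.3%. The median log2 fold change of the family was 0.0028 in PAT1 and 0.06 in PAT3, beside 0.0099 and 0.03 over all genes. No family gene separated either treated group from Control without overlap, a pattern shown by 6.22% of all genes in PAT1 and 9.32% in PAT3. The PAT1 and PAT3 comparisons share the same Control mice.

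The split of calls depended on the scaling. When each sample was re-centred on its own median, every log2 fold change moved by 0.14 in PAT1 and 0.19 in PAT3. All genes were then called 57 higher and 46 lower in PAT1, instead of 40 and 61, and 152 higher and 78 lower in PAT3, instead of 76 and 98. Quantile normalization gave 110 higher and 85 lower in PAT3. The family counts in PAT3 were 3 higher and 2 lower after re-centring and 4 higher and 2 lower after quantile normalization.

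**Figure D1:**
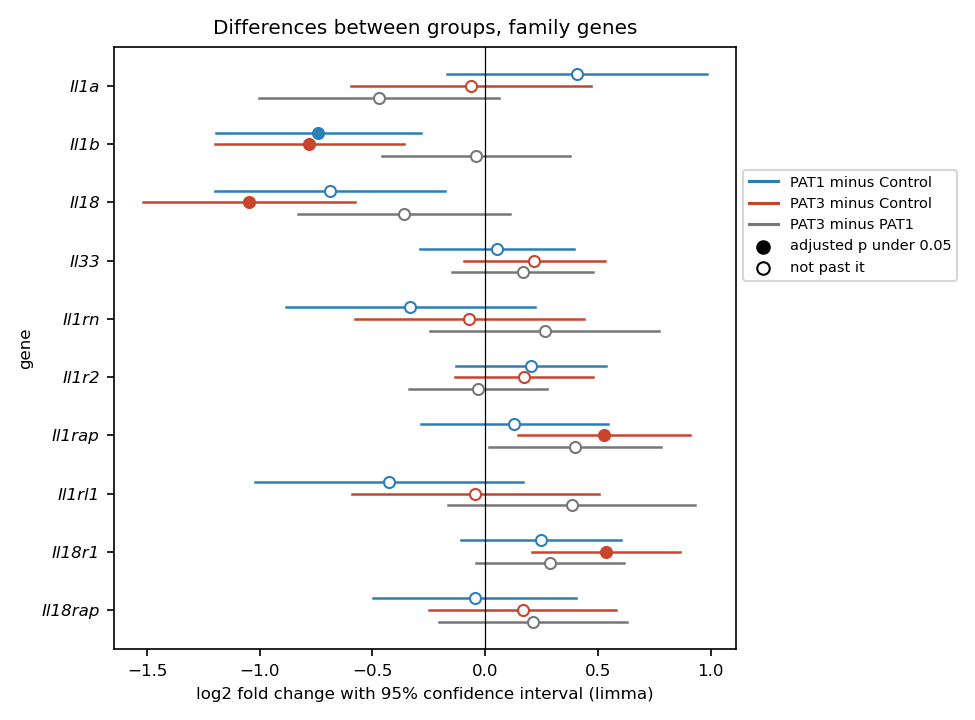
Log2 fold change (x axis) of each family gene (y axis) in PAT1 minus Control (blue), PAT3 minus Control (red) and PAT3 minus PAT1 (grey), with 95% confidence intervals from limma over 24 mice. Filled points have an adjusted p under 0.05: Il1b lies near -0.75 in both treated groups, Il18 at -1.05 in PAT3, and Il1rap and Il18r1 near 0.53 in PAT3.

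Il1b encodes IL-1 beta, the ligand that myeloid cells release after cleavage by caspase-1. Its log2 level ran from 5.24 through a median of 5.63 to 6.51 in the 7 Control mice, from 4.76 through 4.95 to 5.56 in the 7 PAT1 mice and from 4.39 through 4.85 to 5.80 in the 10 PAT3 mice. All 7 PAT1 mice were below the Control mean and 6 were below every Control mouse. Of the PAT3 mice, 9 of 10 were below the Control mean and 8 below every Control mouse. Levels averaged 5.75 ± 0.54 (SD, n = 7), 5.01 ± 0.27 (SD, n = 7) and 4.96 ± 0.41 (SD, n = 10), which is 1.67-fold lower in PAT1 and 1.72-fold lower in PAT3. The log2 fold change was -0.74 (SE 0.22, 95% interval -1.19 to -0.29, adjusted p = 0.0172 by limma) in PAT1 and -0.78 (SE 0.20, -1.20 to -0.36, adjusted p = 0.00467) in PAT3. The difference between the treated groups was -0.04 (-0.46 to 0.38, adjusted p = 0.931). The transcript was sparse, with median counts of 52 in Control, 30 in PAT1 and 31.5 in PAT3. The PAT1 call rested on Control replicates 2 and 4, the males with the highest levels, and was not made without replicate 2 (-0.62, adjusted p = 0.0509) or replicate 4 (-0.61, adjusted p = 0.0513), in the methods' test (adjusted p = 0.0657) or after re-centring (-0.60, adjusted p = 0.054). It was also not made in females (-0.49, adjusted p = 0.312) or males alone (-0.93, adjusted p = 0.0694). Quantile normalization lowered the PAT3 difference to -0.48 (adjusted p = 0.0403). In bulk tissue, fewer cells of a type and less RNA per cell cannot be told apart.

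Il1a encodes IL-1 alpha, which acts on the same receptor as IL-1 beta without that cleavage. It was near the lower end of the assay, with median counts of 16 in Control, 17 in PAT1 and 16.5 in PAT3, so that counting alone gives an error of about 24% to 25%. Log2 levels ran from 2.98 to 4.42 in Control, 3.65 to 5.12 in PAT1 and 3.04 to 4.59 in PAT3, and the groups overlapped widely. The log2 fold change was 0.41 in PAT1 (95% interval -0.17 to 0.99, adjusted p = 0.36) and -0.06 in PAT3 (-0.60 to 0.47, adjusted p = 0.86), neither past the threshold.

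Il18 encodes IL-18, an epithelial cytokine of the gut that prompts interferon gamma production by lymphocytes. Its log2 level ran from 8.67 through a median of 9.46 to 10.52 in Control, from 8.38 through 8.70 to 9.36 in PAT1 and from 7.55 through 8.59 to 8.96 in PAT3. All 7 PAT1 and all 10 PAT3 mice were below the Control mean, and 7 of the PAT3 mice were below every Control mouse. Levels averaged 9.50 ± 0.66 (SD, n = 7), 8.81 ± 0.33 (SD, n = 7) and 8.45 ± 0.42 (SD, n = 10). Il18 was 2.07-fold lower in PAT3, with a log2 fold change of -1.05 (SE 0.23, 95% interval -1.52 to -0.58, adjusted p = 0.00106 by limma). The call was made with each mouse left out in turn (adjusted p from 0.000292 to 0.00369). It was also made with adjustment for the enterocyte markers (-1.17, adjusted p = 0.000272), a list written after the data had been seen. That list holds genes called in both directions. The Il18 call was made among the females as well (-1.49, adjusted p = 0.00857), but not among the males (-0.74, adjusted p = 0.074). In PAT1 the log2 fold change was -0.69 (SE 0.25, -1.20 to -0.18, adjusted p = 0.0525), just outside the threshold. It was inside with a pseudocount of 10, voom, low genes left out, trended robust variances, sample weights, or sex, the size factor, the enterocyte list or the B cell list as a covariate (-0.83 to -0.68, adjusted p from 0.0147 to 0.0474). It was also inside when PAT1 replicate 3 (-0.78, adjusted p = 0.036), PAT1 replicate 7 (-0.74, adjusted p = 0.0431), Control replicate 3 (-0.82, adjusted p = 0.02), Control replicate 4 (-0.83, adjusted p = 0.0186) or PAT3 replicate 5 (-0.69, adjusted p = 0.0348) was left out. The PAT1 value stayed outside in 8 of the 17 other settings (-1.14 to -0.35, adjusted p up to 0.448). With 1 mouse left out it stayed outside in 19 of 24 fits (adjusted p up to 0.139). PAT3 and PAT1 differed by -0.36 (-0.83 to 0.11, adjusted p = 0.313).

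Il33 encodes IL-33, the alarmin held in the nuclei of epithelial and stromal cells and the ligand of ST2. Log2 levels ran from 5.94 to 6.98 in Control, 6.09 to 6.65 in PAT1 and 5.99 to 6.98 in PAT3, with medians of 6.35, 6.42 and 6.58. The groups overlapped over most of their range. The log2 fold change was 0.05 in PAT1 (95% interval -0.29 to 0.39, adjusted p = 0.875) and 0.22 in PAT3 (-0.09 to 0.53, adjusted p = 0.285). The PAT3 value passed the threshold after re-centring (0.41, adjusted p = 0.0323), quantile normalization (0.40, adjusted p = 0.0261) and with sample weights (0.28, adjusted p = 0.045).

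Il1rn encodes the receptor antagonist, which occupies the IL-1 receptor without signalling, and Il1r2 encodes a decoy receptor that binds IL-1 without signalling. Il1rn ran from 5.86 through a median of 6.82 to 8.07 in Control, from 6.21 through 6.66 to 7.22 in PAT1 and from 6.07 through 7.02 to 7.79 in PAT3. Its log2 fold change was -0.33 in PAT1 (95% interval -0.89 to 0.22, adjusted p = 0.432) and -0.07 in PAT3 (-0.58 to 0.44, adjusted p = 0.84). Il1r2 ran from 5.32 to 5.92 in Control, 5.68 to 6.20 in PAT1 and 5.19 to 6.49 in PAT3. All 7 PAT1 mice were above the Control mean of Il1r2, but the log2 fold change of 0.20 (-0.13 to 0.54, adjusted p = 0.428) was not past the threshold. The same held in PAT3 at 0.17 (-0.13 to 0.48, adjusted p = 0.395), except after quantile normalization (0.43, adjusted p = 0.02).

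Il1rap encodes the accessory chain shared by the receptors of IL-1 and IL-33. Its log2 level ran from 6.21 through a median of 6.54 to 6.82 in Control, from 5.70 through 6.70 to 7.18 in PAT1 and from 6.10 through 7.09 to 7.44 in PAT3. Of the PAT3 mice, 9 of 10 were above every Control mouse, whereas PAT3 replicate 7, the shallowest sample of its group, was below every one. Means were 6.49 ± 0.20 for the 7 Control, 6.62 ± 0.52 for the 7 PAT1 and 7.02 ± 0.35 for the 10 PAT3 mice (SD). The PAT3 level was 1.44-fold higher (log2 fold change 0.53, SE 0.19, 95% interval 0.14 to 0.91, adjusted p = 0.0327 by limma), and the PAT1 level did not pass (0.13, -0.29 to 0.54, adjusted p = 0.714). This call was lost under more alternatives than the other family calls against Control. It was not made in the methods' test (adjusted p = 0.0934), with the enterocyte markers (0.45, adjusted p = 0.06) or the B cell markers (0.44, adjusted p = 0.0813) as a covariate, in females (0.49, adjusted p = 0.223) or males alone (0.65, adjusted p = 0.0662), or without PAT3 replicate 2 (adjusted p = 0.0518), 3 (0.0583) or 4 (0.0524) or Control replicate 1 (0.0667), 5 (0.0667) or 6 (0.0552). Without the 2 shallowest samples it was 0.63 (adjusted p = 0.00056). PAT3 exceeded PAT1 by 0.40 (0.02 to 0.78, adjusted p = 0.159), and without PAT3 replicate 7 by 0.50 (adjusted p = 0.0383).

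Il1rl1 encodes ST2, the ligand-binding chain for IL-33. Log2 levels ran from 7.31 through a median of 7.92 to 8.88 in Control, from 6.40 through 7.86 to 8.38 in PAT1 and from 7.29 through 7.92 to 8.63 in PAT3. The log2 fold change was -0.43 in PAT1 (95% interval -1.02 to 0.17, adjusted p = 0.351) and -0.04 in PAT3 (-0.59 to 0.50, adjusted p = 0.905). The spread in PAT1, with an SD of 0.71, was the widest of the 3 groups.

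Il18r1 encodes the chain that binds IL-18, and Il18rap its accessory chain. Il18r1 ran from 6.19 through a median of 6.57 to 7.08 in Control, from 6.55 through 6.91 to 7.27 in PAT1 and from 6.52 through 7.14 to 7.66 in PAT3. Of the PAT3 mice, 9 of 10 were above the Control mean and 5 above every Control mouse. Levels averaged 6.62 ± 0.30 (SD, n = 7), 6.86 ± 0.28 (SD, n = 7) and 7.15 ± 0.34 (SD, n = 10), which made PAT3 1.45-fold higher (log2 fold change 0.54, SE 0.16, 95% interval 0.21 to 0.86, adjusted p = 0.0113 by limma). In PAT1 the value was 0.25 (-0.11 to 0.60, adjusted p = 0.36). The PAT3 call was made with each mouse left out in turn (adjusted p from 0.00304 to 0.0356), and was not made in females (0.65, adjusted p = 0.0659) or males alone (0.52, adjusted p = 0.124). The F-test for Il18r1 (adjusted p = 0.0301) was less stable, and was not past the threshold without PAT3 replicate 3 (0.0558), 4 (0.0608) or 6 (0.052) or Control replicate 1 (0.0583), 5 (0.0532), 6 (0.0509) or 7 (0.0637). Il18rap ran from 4.60 to 5.44 in Control, 4.25 to 5.63 in PAT1 and 4.53 to 5.99 in PAT3. Its log2 fold change was -0.05 in PAT1 (-0.50 to 0.40, adjusted p = 0.928) and 0.17 in PAT3 (-0.25 to 0.58, adjusted p = 0.549).

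**Figure D2:**
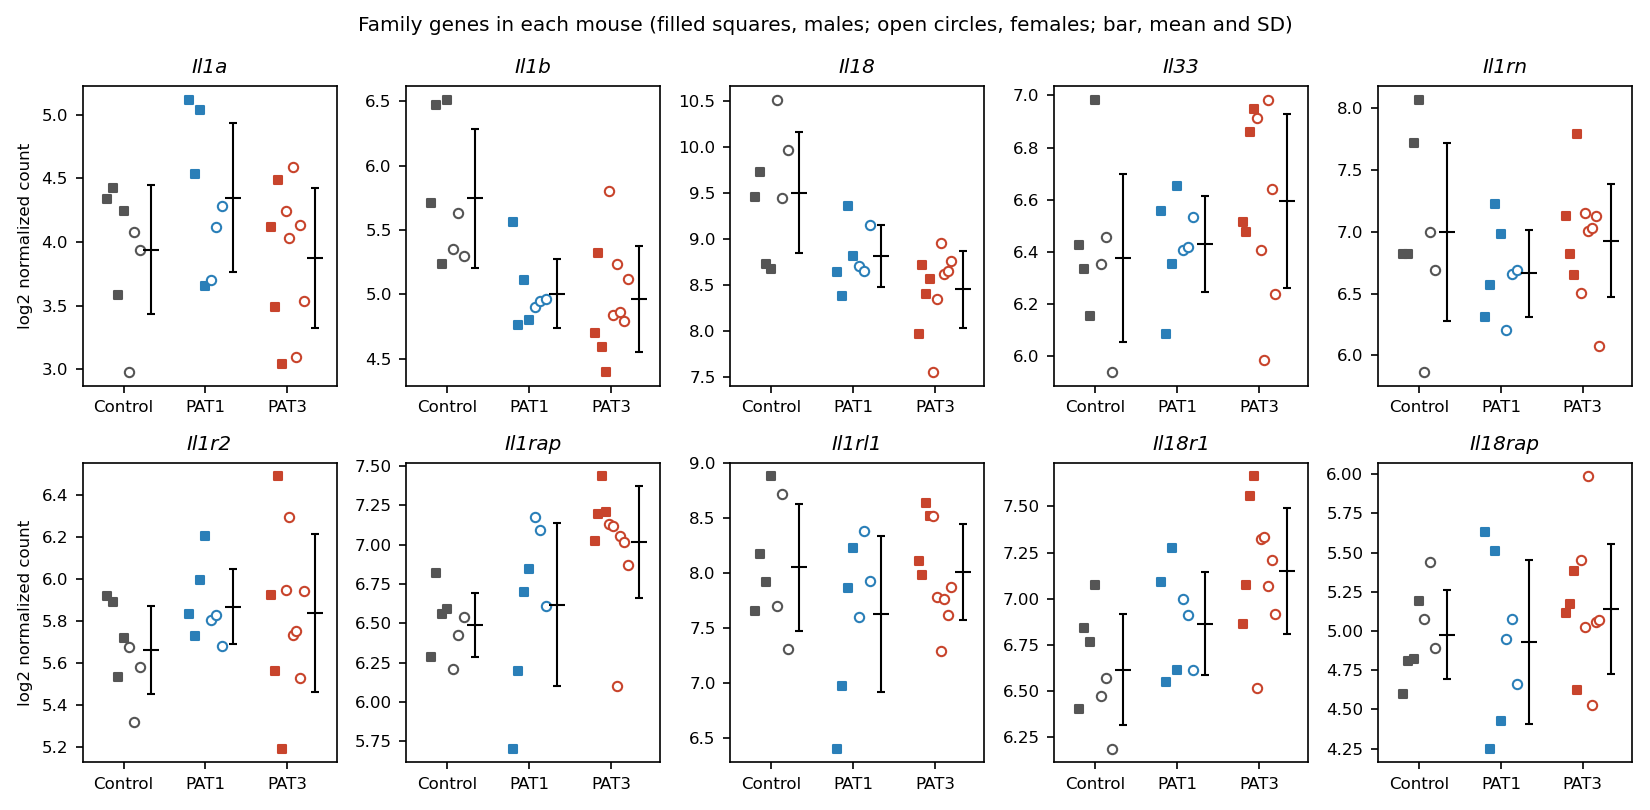
Log2 normalized count (y axis, scaled separately for each gene) of the 10 family genes in every Control, PAT1 and PAT3 mouse (x axis), with males as filled squares, females as open circles and bars for the mean and SD of 7, 7 and 10 mice. Most PAT1 and PAT3 points of Il1b lie below all Control points, all PAT3 points of Il18 lie below 9, and 1 PAT3 point of Il1rap, at 6.10, lies apart from the other 9 between 6.87 and 7.44.

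Ratios of family genes within each mouse do not depend on the scaling of the sample, but any background held in low counts would not cancel. They compare groups for 1 pair of probes and say nothing of the molar ratio. The log2 ratio of Il18 to Il18r1, ligand over receptor, ran from 1.60 through a median of 2.89 to 4.04 in Control, from 1.55 through 1.83 to 2.54 in PAT1 and from 0.84 through 1.27 to 1.84 in PAT3. All 7 PAT1 and all 10 PAT3 mice were below the Control mean, and the groups still overlapped. Means were 2.89 ± 0.88 for Control, 1.95 ± 0.34 for PAT1 and 1.30 ± 0.36 for PAT3 (SD over 7, 7 and 10 mice). PAT3 was below Control by 1.58 on the log2 scale (a difference of -1.58, two-sided exact permutation p = 0.000206, adjusted p = 0.00309 over 15 ratio tests). PAT3 was also below PAT1, with a difference of -0.65 (exact permutation p = 0.00262, adjusted p = 0.0197), and all 10 PAT3 mice were below the PAT1 mean. PAT1 differed from Control by -0.93 (exact permutation p = 0.0239, adjusted p = 0.119), which did not pass after adjustment except without Control replicate 4 (-1.15, adjusted p = 0.0204). Within 1 sex the difference between PAT3 and Control was -2.14 in females and -1.26 in males, in groups too small for a lone difference to pass the adjustment over 15 ratio tests. All 6 PAT3 females were below all 3 Control females.

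The other ratios did not pass the adjusted threshold. Il1b over Il1rn, agonist over antagonist, had means of -1.25 ± 0.71 for Control, -1.66 ± 0.49 for PAT1 and -1.96 ± 0.78 for PAT3 (SD), and 8 of 10 PAT3 mice were below the Control mean (difference -0.71, exact permutation p = 0.0749, adjusted p = 0.187). Il1a over Il1rn was higher in PAT1 than in Control by 0.74 (exact permutation adjusted p = 0.183, and 0.0466 without PAT1 replicate 4). The highest PAT1 ratios, -1.19, -2.04 and -2.19, were in replicates 1, 2 and 3. These had Il1a counts of 14, 17 and 18 and the lowest total counts of PAT1 (171671, 389743 and 294135). The part of depth in this ratio was not tested. Il18r1 over Il18rap, both chains of the IL-18 receptor, differed from Control by 0.29 in PAT1 and 0.37 in PAT3 (exact permutation adjusted p = 0.227 and 0.228). Il33 over Il1rl1 differed by 0.48 and 0.26 (exact permutation adjusted p = 0.227 and 0.228).

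**Figure D3:**
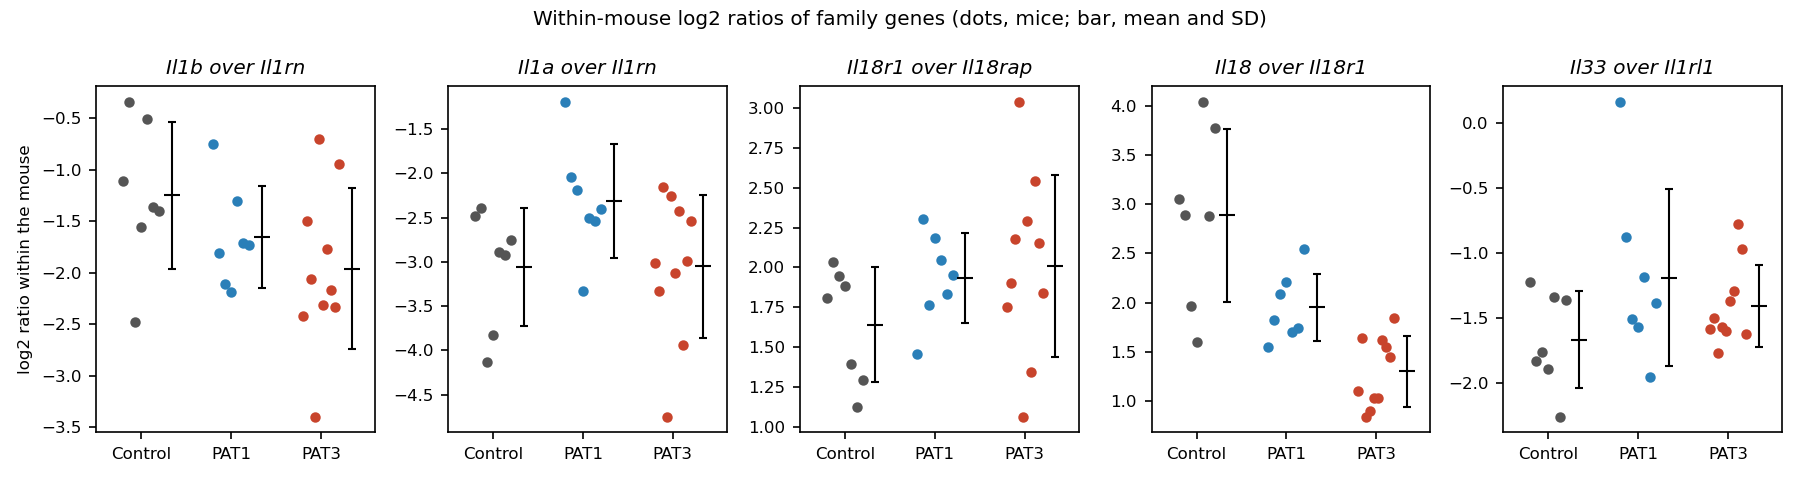
Log2 ratio within the mouse (y axis, scaled separately) of 5 pairs of family genes in Control, PAT1 and PAT3 (x axis), with a point for each mouse and bars for the mean and SD. For Il18 over Il18r1 the group means step down from 2.89 to 1.95 and 1.30, and in the other pairs the groups cover much of the same range.

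The sexes were compared because the labels gave the sex of every mouse. With treatment in the model, limma called 0 of 10 family genes between females and males, against 0.366% of all genes. At an unadjusted p under 0.05, 1 of 10 passed, against 11.7%, and voom also called 0. That gene was Il1rn, lower in females by 0.44 (difference -0.44, 95% interval -0.83 to -0.04, adjusted p = 0.39). For a treatment effect that differed between the sexes limma and voom both called 0 of 10, against 0.183% of all genes, and 1 of 10 passed without adjustment, against 18.3%. That gene was Il1rap (p = 0.0318 by limma, adjusted p = 0.228). Its mean in PAT1 was 6.96 ± 0.30 in 3 females and 6.36 ± 0.52 in 4 males, whereas in Control it was 6.39 ± 0.17 and 6.56 ± 0.22 (SD). Il1b fell in PAT3 by 1.23 in males (log2 fold change -1.23, adjusted p = 0.0148) and by 0.32 in females (-0.32, adjusted p = 0.424), but the test of that difference did not pass (adjusted p = 0.351).

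Variation among mice of the same group was described by correlating deviations from the group means over 24 mice, in 85 pairs that comprised all 45 pairs of family genes and each family gene with the mean level of 4 marker lists. Both values of a pair come from the same sample and share its size factor. Pearson's r passed the adjusted threshold in 6 pairs and Spearman's rho in 3. Il1b was lower where enterocyte markers were higher (r = -0.785, permutation p = 0.00014, adjusted p = 0.0119). Spearman's rho was -0.624 (permutation p = 0.00296, adjusted p = 0.0629), and r was -0.738 without 2 samples. Values of r without 2 samples left out the 2 mice whose level of the first gene named lay farthest from the median of all 24. Distance on the other measure was not used. Within Control alone r was -0.954, within PAT1 -0.782 and within PAT3 -0.699. Control replicates 2 and 4, which carried the Il1b call in PAT1, were also the Control mice with the lowest enterocyte marker levels, 0.57 and 0.76 below their group mean. With the enterocyte list as a covariate the log2 fold change of Il1b was -0.50 in PAT1 (adjusted p = 0.0185) and -0.58 in PAT3 (adjusted p = 0.00222). That list was written after the data had been seen and holds genes called in both directions. Il1b also varied with mononuclear phagocyte markers (r = 0.696, permutation adjusted p = 0.0193), although rho did not pass (0.487, adjusted p = 0.175), and r without 2 samples was 0.568. Il1a was lower with more enterocyte markers by both measures (r = -0.609, permutation adjusted p = 0.0362, and rho = -0.65, adjusted p = 0.0463), with r of -0.583 without 2 samples. That check kept the shallowest samples, PAT1 replicate 1 and PAT3 replicate 7. Each had the highest Il1a level of its group (5.12 and 4.58). Their enterocyte markers deviated from the group means by -1.01 and -0.53, and the part of depth was not tested.

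Il1rap varied with Il1rl1, its partner in the IL-33 receptor (r = 0.707, permutation p = 0.0003, adjusted p = 0.0127, and rho = 0.663, adjusted p = 0.0463). Without the 2 samples farthest from the median in Il1rap r was 0.536, and the values were 0.303 in Control, 0.86 in PAT1 and 0.761 in PAT3. Il33 varied with Il1rl1 (r = 0.578, permutation adjusted p = 0.0362), with a rho of 0.529 that did not pass (adjusted p = 0.145) and r of 0.58 without 2 samples. Il1rap was lower where T cell markers were higher (r = -0.675, permutation adjusted p = 0.0368, and rho = -0.669, adjusted p = 0.0484, with r of -0.602 without 2 samples). The Control mice alone gave r = 0.0343, the PAT1 mice -0.749 and the PAT3 mice -0.678, and the difference between these was not tested. Il18 was correlated with none of the other members or lists beyond the threshold, and its r with Il18r1 was 0.0506 (rho = 0.00609, permutation p = 0.822 and 0.98). The groups differed in sign, with r between Il18 and Il18r1 of -0.661 among Control, 0.378 among PAT1 and 0.567 among PAT3 mice. Likewise Il18 and Il1rn gave -0.977 among Control, 0.655 among PAT1 and 0.107 among PAT3 mice (pooled r = -0.402, rho = -0.15, permutation p = 0.108 and 0.51), and these differences were not tested.

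**Figure D4:**
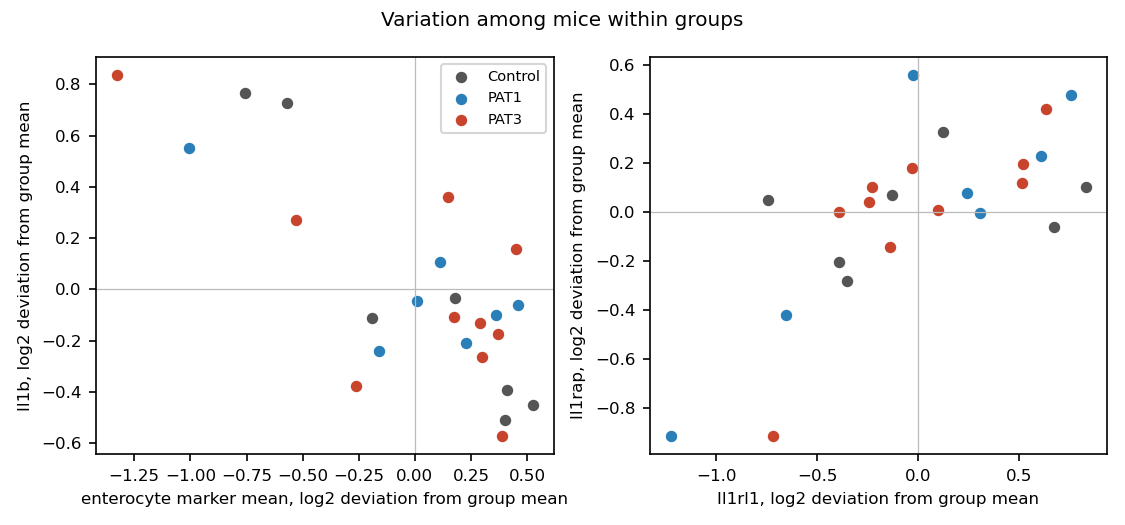
Log2 deviation of each mouse from its group mean for Il1b (y axis) against the mean of 5 enterocyte markers (x axis) on the left, and for Il1rap against Il1rl1 on the right, with a point for each of 24 mice coloured by group. On the left the points fall from upper left to lower right (r = -0.785), and on the right they rise (r = 0.707), with PAT1 replicate 1 and PAT3 replicate 7 at the lower left.

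For the 3 genes called by the F-test, the genes outside the family with the most similar within-group variation were Ctla4 (r = 0.703), Csf3r (0.697) and Il7r (0.686) for Il1b, Bst1 (0.671), Pdcd1 (0.653) and Cdkn1a (0.628) for Il18, and Icam4 (0.568), Pparg (0.542) and Bax (0.504) for Il18r1. These are Pearson correlations over 24 mice from a search of all genes, given as a description.

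The rest of the pathway was read from lists of genes. Of 7 other receptor and decoy genes listed, 3 were in the table. Of these 3, 2 (Il1rl2 and Sigirr) were called higher in PAT3 and none in PAT1, beside 13.9% and 7.31% of all genes. Il1rl2, the receptor for IL-36, was 1.66-fold higher in PAT3 (log2 fold change 0.73, SE 0.21, adjusted p = 0.00927 by limma). All 10 PAT3 mice, at 6.19 to 6.95, were above all 7 Control mice, at 4.60 to 6.10. Of all genes, 9.32% separated these groups without overlap. Il1rl2 was not called in females (0.56, adjusted p = 0.111) or males alone (0.85, adjusted p = 0.0839). Sigirr, an inhibitory receptor of the family, was 1.30-fold higher in PAT3 (0.38, SE 0.15, adjusted p = 0.0467). Its difference in PAT1 was of the same size and not past the threshold (0.40, SE 0.16, adjusted p = 0.0785). The PAT1 value passed after re-centring (0.55, adjusted p = 0.0413) or quantile normalization (0.45, adjusted p = 0.02), with the size factor (0.52, adjusted p = 0.0158) or sample weights (0.45, adjusted p = 0.0102), and without PAT1 replicate 1 (0.54, adjusted p = 0.00654) or the 2 shallowest samples (0.54, adjusted p = 0.0037). The PAT3 call of Sigirr was not made in the methods' test (adjusted p = 0.102), with sex (0.0615) or the B cell markers (0.0926) as a covariate, or in females (0.453) or males alone (0.123). It was also not made with any of PAT1 replicates 2, 4 and 5, PAT3 replicates 1, 2, 4, 6, 8, 9 and 10 or Control replicates 1, 2, 4, 5 and 6 left out (0.34 to 0.41 on the log2 scale, adjusted p from 0.0503 to 0.103). Il1r1, the signalling receptor of IL-1, had a log2 fold change of 0.32 in PAT3 (95% interval -0.05 to 0.69, adjusted p = 0.175) and -0.14 in PAT1 (-0.54 to 0.26, adjusted p = 0.676). Of 9 processing genes 2 were in the table, and neither was called. Casp1, which cleaves the precursors of IL-1 beta and IL-18, had log2 fold changes of 0.05 in PAT1 (-0.24 to 0.34) and 0.04 in PAT3 (-0.23 to 0.31).

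Of 22 signalling genes 18 were in the table. In PAT1 1 was lower, and in PAT3 4 were higher and 1 lower, beside 18.5% and 31.8% of all genes called in either direction. The median log2 fold changes were 0.13 and 0.25. The gene that fell in both was Nfkbiz, an atypical inhibitor of the IkappaB kind that IL-1 signalling induces. It ran from 10.38 to 11.10 in Control, 9.07 to 10.22 in PAT1 and 9.22 to 10.43 in PAT3, so that all 7 PAT1 mice were below every Control mouse. Of all genes, 6.22% separated PAT1 from Control without overlap. The log2 fold change of Nfkbiz was -1.24 (SE 0.18, adjusted p = 2.85e-05) in PAT1 and -0.997 (SE 0.16, adjusted p = 3.7e-05) in PAT3. Those that rose in PAT3 were Irak3, an inhibitory kinase homologue (0.49, SE 0.13, adjusted p = 0.00414), the NF-kappaB subunit Rela (0.41, SE 0.11, adjusted p = 0.00644), the kinase scaffold Ikbkg (0.45, SE 0.14, adjusted p = 0.0197) and Mapkapk2, a kinase downstream of p38 (0.30, SE 0.10, adjusted p = 0.0279). The Ikbkg call was not made without Control replicate 1 (0.40, adjusted p = 0.0515), and that of Mapkapk2 without Control replicate 1 (0.29, adjusted p = 0.0501), 2 (0.28, adjusted p = 0.0568) or 4 (0.25, adjusted p = 0.0686) or with the B cell markers as a covariate (0.27, adjusted p = 0.0593). Within 1 sex, Irak3 (adjusted p = 0.0631 in females and 0.0818 in males) and Mapkapk2 (0.593 and 0.0839) were not called, nor were Rela (0.338) and Ikbkg (0.45) in females and Nfkbiz in males of PAT3 (0.0587). The adaptor Myd88 had log2 fold changes of 0.16 in PAT1 (95% interval -0.07 to 0.39) and 0.04 in PAT3 (-0.17 to 0.25).

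Of 18 genes listed as targets, 16 were in the table, with median log2 fold changes of -0.23 in PAT1 and -0.29 in PAT3. All called targets were lower, beside 11.2% of all genes called lower in PAT1 and 17.9% in PAT3. In PAT1 2 fell, Il17a (-1.05, SE 0.27, adjusted p = 0.00567) and Tbx21 (-0.65, SE 0.16, adjusted p = 0.00422). In PAT3 6 fell, which were the type 3 cytokines Il17a (-1.28, adjusted p = 0.000283), Il17f (-1.45, adjusted p = 0.0196) and Il22 (-1.56, adjusted p = 0.00802), the Th1 genes Tbx21 (-0.60, adjusted p = 0.0023) and Il12rb2 (-0.79, adjusted p = 0.00727), and the neutrophil chemokine Cxcl1 (-0.88, adjusted p = 0.00896). After re-centring, Tbx21 was not called in PAT1 (-0.50, adjusted p = 0.0659) or PAT3 (-0.41, adjusted p = 0.0611). In the methods' test Il17f was not called (adjusted p = 0.0849). Within 1 sex, Il22 (adjusted p = 0.169 in females and 0.0594 in males) and Cxcl1 (0.185 and 0.0543) were not called in PAT3, nor were Il12rb2 (0.362) and Il17f (0.368) in females and Tbx21 in males (0.0689). In PAT1 Il17a was not called in males (adjusted p = 0.238) and Tbx21 not in females (0.241). Il17f, Il22 and Il17a were sparse, with median counts of 3 to 8 in the treated groups. Their log2 fold changes in PAT3 depended on the setting, and shrank to as little as -0.55, -0.47 and -0.68 among the alternatives. Ifng, the cytokine that IL-18 is best known to induce, had log2 fold changes of -0.15 in PAT1 (95% interval -0.68 to 0.38, adjusted p = 0.732) and -0.55 in PAT3 (-1.04 to -0.07, adjusted p = 0.0746). Of the type 2 cytokines that IL-33 induces, Il13 had a log2 fold change of 0.58 in PAT3 (0.07 to 1.08, adjusted p = 0.0721) and Il5 of 1.03 (0.15 to 1.90, adjusted p = 0.0654), at median counts of 20 and 4.5. Neither was called, nor were the type 2 genes Il4 and Gata3 of the same list in either treated group. Between PAT3 and PAT1 the target called was Ptgs2, named after its values were seen, which was higher in PAT3 by 0.68 (SE 0.18, adjusted p = 0.0401 by limma). The Ptgs2 call was not made in the methods' test, with only the 2 groups compared, or in females alone. It was also not made with the size factor or the B cell list as a covariate. Each of these settings called 0 of all 547 genes between PAT3 and PAT1.

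**Figure D5:**
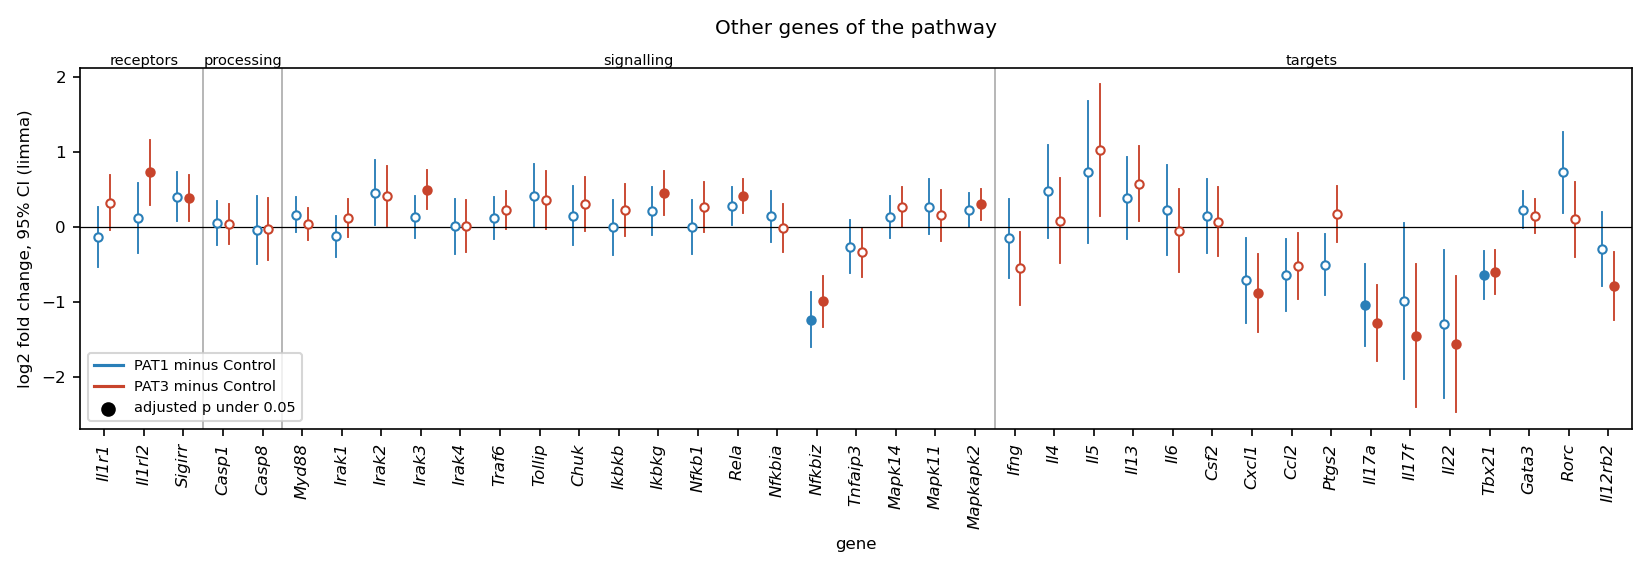
Log2 fold change with 95% confidence interval (y axis) of the other pathway genes (x axis, grouped as receptors, processing, signalling and targets) in PAT1 minus Control (blue) and PAT3 minus Control (red), from limma over 24 mice, with filled points for an adjusted p under 0.05. Nfkbiz and Il17a lie near or below -1 in both comparisons, and Il1rl2 is the receptor gene farthest above 0 in PAT3, at 0.73.

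Markers of cell types that express or respond to the family also differed between groups, and their part in the results above was not tested except through the enterocyte and B cell covariates. The calls below stand beside 11.2% of all genes called lower and 7.31% higher in PAT1. In PAT3 17.9% of all genes were called lower and 13.9% higher. In PAT1 3 of 11 T cell markers were lower. Mononuclear phagocyte markers summed to 1946 to 2884 normalized counts in Control, 1658 to 2168 in PAT1 and 1811 to 2412 in PAT3, and 2 of 10 (Itgam and Msr1) were lower in each treated group. Neutrophil markers summed to 65.2 to 121 in Control, 55.1 to 111 in PAT1 and 39.3 to 108 in PAT3. Of these, 1 of 6 (S100a9) was lower in PAT3, where log2 fold changes of the list ran from -0.96 to 0.81. Stromal and endothelial markers summed to 2169 to 3564 in Control, 1722 to 3858 in PAT1 and 2225 to 5364 in PAT3, and 3 of 6 (Cd34, Fn1 and Pdgfrb) were higher in PAT3. Mast cell and type 2 markers summed to 196 to 324, 162 to 376 and 171 to 557. Of these, 1 of 3 (Kit) was higher in PAT3, where log2 fold changes of the list ran from -0.57 to 0.68. B cell markers summed to 967 to 1738, 751 to 5613 and 749 to 1275. Of these, 1 of 10 (Cd79b) was lower in PAT3 than in Control and than in PAT1, the latter beside 2.74% of all genes. No marker of these lists was at 0 in all samples. Of the enterocyte markers, Ccl25 was higher and Ceacam1 lower in both treated groups, Btnl1 was higher in PAT1 and Abcb1a in PAT3.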

How the data were processed

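Immune transcripts were counted in terminal ileum RNA of 24 mice, grouped by the treatment label. The authors normalized the counts with DESeq2, with 1 size factor per sample, and the deposited table holds 547 genes as log2 values. Background subtraction and the probe sequences are not given in the sources used here, so low genes may hold background. Whole counts were recovered from the deposited log2 values (100% whole within 0.01 counts), and 19 values in 9 genes, none in the family, were listed at 0. Intervals from counts cover counting error only. Levels of different genes were not compared, since each has its own probe.

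Genes were tested with limma (version 3.58.1, R 4.3.3, lmFit and eBayes) on the deposited values of all mice without covariates, pseudocount or filter. P-values were adjusted by Benjamini-Hochberg over 547 genes per contrast at 0.05, and genes past it are termed called. Ratios used two-sided exact permutation tests and correlations 100000 permutations within groups. The limma fit of the group contrasts without covariates was tested on simulated data, and the other fits were not. The alternatives were 17 other settings and each of 24 mice left out. No pair of samples agreed within sampling noise (lowest chi-square over its degrees of freedom 3.98, 276 pairs). Of the 547 symbols, 531 were current in RefSeq (GRCm38.p6), including all 10 members. The members and lists were chosen with earlier results of these data known, and the enterocyte list was written after the data had been seen. Named genes were all 10 members, the pathway genes called against Control, and the 3 most similar genes. Ifng, Il4, Il5, Il13, Gata3, Il1r1, Casp1, Myd88 and Ptgs2 fall outside that rule and were named after their values were seen.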

Additional observations from a re-analysis of the deposited data

Results flagged for a closer look

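Il1rap in PAT3 replicate 7 had a log2 level of 6.10, whereas the other 9 PAT3 mice lay between 6.87 and 7.44. The gap to the nearest mouse was 0.58 of the range of the group, above the critical value of 0.466 for 10 samples. This was 1 of 30 groups of family values examined, and chance alone passes about 5% of groups. The sample also had the lowest total of PAT3, 265500 counts, and the part of depth in the value was not tested. Without it Il1rap was higher in PAT3 than in Control by 0.63 (adjusted p = 0.00448) and than in PAT1 by 0.50 (adjusted p = 0.0383), where limma otherwise gave 0.53 (adjusted p = 0.0327) and 0.40 (adjusted p = 0.159).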

How the results depend on the processing

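The number of family genes called in PAT1, 1 by limma, was 0 in the methods' test, after re-centring, and in females or males alone, and 2 with a pseudocount of 10, with voom on recovered counts, with low genes (mean log2 under 5) left out, with sex, size factor, the enterocyte list or the B cell list as a covariate, with sample weights and with trended robust variances. The settings with 2 called 102 (of 393, low genes left out) to 136 (of 547, sample weights) of all genes, and re-centring 103 of 547. Leaving out 1 mouse gave 0 to 2 in PAT1 and, between PAT3 and PAT1, 0 to 1. In PAT1 the fits with 0 or 2 called 88 to 111 of all 547 genes. Between PAT3 and PAT1 the 1 came without PAT3 replicate 7, against 102 of all 547. In PAT3 the count of 4 became 1 in females and 1 in males alone. The F-test count of 3 became 5 after quantile normalization and 1 in females, where 213 and 37 of all 547 genes were called instead of 189. Males alone gave 1 of 10 between PAT3 and PAT1, against 129 of all 547 genes. Sample weights gave 1 of 10 for treatment by sex, against 47 of all 547. Over all genes, the methods' test called 73 in PAT1 instead of 101, females alone 23 and males alone 57, and in PAT3 females alone called 57 and males alone 122 instead of 174.

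Reversals of sign occurred in values that did not pass the threshold. Il1a in PAT3 became 0.13 after re-centring, 0.12 after quantile normalization, 0.27 in females, 0.14 with the enterocyte covariate and 0.0078 with sample weights. Il1rn in PAT3 became 0.12 after re-centring, 0.061 after quantile normalization, 0.0047 with sex, 0.30 in females and 0.11 with sample weights, and Il1rn in PAT1 0.00013 in females. Il1rl1 in PAT3 became 0.15 after re-centring, 0.15 in males, 0.026 with the size factor and 0.036 without the 2 shallowest samples (chosen after seeing the depth), in PAT1 0.060 in females, and between PAT3 and PAT1 -0.16 in females. Il18rap in PAT1 became 0.097 after re-centring, 0.029 after quantile normalization, 0.10 in males, 0.098 with the enterocyte list and 0.059 with the B cell list. Il1rap became -0.20 in PAT1 in males and -0.079 between PAT3 and PAT1 in females. Il33 in PAT1 became -0.062 and Irak3 in PAT1 -0.13 in males. Between PAT3 and PAT1, Il1b became 0.0061 after re-centring, 0.22 after quantile normalization, 0.17 in females, 0.034 with the size factor and 0.021 without the 2 shallowest samples, and Il1r2 0.016, 0.13, 0.095 in females and 0.0079 with the B cell list. The ratio of Il1a to Il1rn in PAT3 became -0.023 in females and -0.10 in males, and in females between PAT3 and PAT1 Il18r1 over Il18rap became -0.072 and Il33 over Il1rl1 0.24. With 1 mouse left out, values that changed sign ran from -0.23 to 0.028 for Il1a in PAT3, -0.13 to 0.051 for Il1b and -0.10 to 0.041 for Il1r2 between PAT3 and PAT1, -0.26 to 0.11 for Il1rn and -0.17 to 0.094 for Il1rl1 in PAT3, -0.16 to 0.066 for Il18rap, -0.021 to 0.15 for Il33 and -0.060 to 0.29 for Il1rl2 in PAT1. For the ratios they ran from -0.17 to 0.19 for Il1a over Il1rn in PAT3, and between PAT3 and PAT1 from -0.039 to 0.18 for Il18r1 over Il18rap and -0.35 to 0.0081 for Il33 over Il1rl1. Re-centring adds the same amount to every gene of a contrast (0.14 in PAT1, 0.19 in PAT3 and 0.05 between PAT3 and PAT1), so its reversals follow from that shift alone and say nothing about the single gene. The fits within 1 sex hold fewer mice. For the other settings the cause was not tested.

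Il1b, Il18, Il18r1 and Il1rap kept their direction in PAT3 in all alternatives run, with log2 fold changes of -1.23 to -0.32, -1.49 to -0.74, 0.45 to 0.73 and 0.44 to 0.72. The fit of sample weights stopped before full convergence in part. No paired analysis was made, since each mouse belonged to 1 treatment group and the labels tie no mice together across groups. Among the 10 members depth limits Il1a most, and the targets Il5, Il22, Il17f and Il17a were sparser still in the treated groups. Litter and cage could not be entered as terms.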
